A study of Homo sapiens with 6 samples.

Results

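The genes described here are 6 small proline-rich (SPRR) genes and IVL, all encoding proteins of the cornified envelope: SPRR1A, SPRR1B, SPRR2A, SPRR2D, SPRR2E, SPRR3 and IVL. They are 7 of the 61806 genes in the deposited table, matched by gene symbol, and the set was selected on the difference between the groups in these same libraries. That difference is therefore described for them without a test. RNA-seq was performed on HCT116, a human colorectal carcinoma cell line, in 3 libraries labelled si-NC (control short interfering RNA, genotype given as wildtype) and 3 labelled si-STRIP2 (STRIP2 knockdown). All 6 came from 1 cell line grown in McCoy's 5A medium with serum, and poly(A) RNA was selected from total RNA. The labels number the libraries within each group without saying whether they came from separate cultures, so p-values measure only the spread between these libraries, which may be technical.

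The cornified envelope is the cross-linked protein shell that replaces the plasma membrane of cells at the surface of skin and other stratified epithelia. Involucrin, the product of IVL, is laid down early, and SPRR proteins act as short bridges between larger envelope proteins once transglutaminases have joined them through glutamine and lysine side chains. The genes lie in the epidermal differentiation complex of chromosome 1, together with the late cornified envelope (LCE) genes and the S100 genes, and SPRR genes are also switched on by stress and injury in simple epithelia such as that of the gut.

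Total counts were 17184963 to 21721218 in si-NC and 17222737 to 18778970 in si-STRIP2, and mitochondrial genes took 4.88% to 8.88% and 5.73% to 6.30% of them. STRIP2 itself was at 3.19, 3.77 and 3.81 FPKM (counts scaled by exonic gene size and library total) in si-NC and at 2.71, 2.53 and 2.58 FPKM in si-STRIP2, so that 72.6% of the control level remained (edgeR adjusted p = 1.62e-05). Of 12 markers of colorectal epithelium, 6 had a mean of at least 1 FPKM, EPCAM and the keratins KRT8, KRT18 and KRT19 among them, while CDX1 was at 0 and VIL1, LGALS4, CDH17 and GPA33 stayed at or below 0.30 FPKM. Of the 7 tested, 4 were called lower in si-STRIP2 and 2 higher (edgeR adjusted p under 0.05), against 27.0% and 27.8% of all tested genes. CDH1 went from 36.6 ± 1.43 to 24.2 ± 0.318 FPKM (SD, n = 3, edgeR adjusted p = 1.57e-14). KRT20, below 1 FPKM, had a log2 fold change of -1.01 (edgeR adjusted p = 0.00935). Markers of leukocytes and endothelium were at or near 0. Of 6 fibroblast markers, COL1A1 alone reached 1 FPKM, at 2.28 ± 0.233 FPKM in si-NC and 2.04 ± 0.131 FPKM in si-STRIP2 (SD, n = 3), and it was not called.

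The SPRR2 genes are near copies of one another, which bears on how reads can be assigned to them. SPRR2D lies on chromosome 1 (153039732 to 153041931, minus strand, in the deposited table), and its whole coding sequence is in exon 2 of the 2 exons of its longest transcript (GENCODE 29 on GRCh38, chromosome 1, 153040128 to 153040346). The coding sequences of SPRR2D, SPRR2A and SPRR2E are each 219 bases long and are shown with capitals at the 6 positions where the 3 are not all the same.
SPRR2D: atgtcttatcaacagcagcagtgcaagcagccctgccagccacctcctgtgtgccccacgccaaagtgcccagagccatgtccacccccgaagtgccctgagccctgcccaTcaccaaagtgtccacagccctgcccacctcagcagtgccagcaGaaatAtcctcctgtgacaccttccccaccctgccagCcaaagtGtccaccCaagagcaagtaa
SPRR2A: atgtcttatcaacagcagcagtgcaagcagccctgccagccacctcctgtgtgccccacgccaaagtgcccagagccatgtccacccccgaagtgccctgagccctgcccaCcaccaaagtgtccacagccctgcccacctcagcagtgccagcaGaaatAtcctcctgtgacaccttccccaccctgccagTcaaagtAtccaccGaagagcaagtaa
SPRR2E: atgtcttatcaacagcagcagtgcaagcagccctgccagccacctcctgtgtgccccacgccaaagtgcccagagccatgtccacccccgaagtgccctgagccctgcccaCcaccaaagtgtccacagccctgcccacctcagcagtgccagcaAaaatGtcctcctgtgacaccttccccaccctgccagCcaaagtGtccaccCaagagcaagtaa
SPRR2D differed from SPRR2A at 4 bases and from SPRR2E at 3. The coding sequence of SPRR2B, which is not in the set, also differed from that of SPRR2D at 3 bases. SPRR1A and SPRR1B, at 270 bases each, and SPRR3, at 510, are longer, and the coding sequence of IVL has 1758 bases.

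Most of the SPRR2D transcript is distinct despite this. Of all stretches of 50 bases in its longest transcript, 201 of 751 (26.8%) occurred exactly in a transcript of another gene, always an SPRR2 gene. Of stretches of 75 bases 87 of 726 did. Of stretches of 100 bases 32 of 701 (4.56%) did, with SPRR2A, SPRR2B and SPRR2E as the partners. No stretch of 150 bases was shared. For SPRR2A the shares were 32.7% at 50 bases, 23.9% at 75, 20.3% at 100 and 10.5% at 150. For SPRR2E they were 23.0%, 99 of 618, 12.1% and 4.05%. SPRR1A and SPRR1B shared stretches of 50 bases with each other (11.3% and 4.38% of them) and none of 75, and SPRR3 and IVL shared none of 50. The longest SPRR1A transcript, 270 bases, holds its coding sequence alone, so its share cannot be compared with those of the other genes. Only exact matches were counted, so stretches that differ at single bases are not included. The read length and the treatment of reads with several matches are not given in the sources used here. The split of counts among SPRR2 genes is therefore uncertain, at least to this extent.

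SPRR2D carried nearly all of the signal. It held 449 of the 469 counts of the 7 genes over the 6 libraries, and it was the only one of the 7 to pass the filter on low counts. In si-NC it had 176, 103 and 118 counts, or 7.70, 5.66 and 6.53 FPKM. In si-STRIP2 it had 21, 17 and 14 counts, or 1.06, 0.92 and 0.77 FPKM. The groups did not overlap, and the lowest si-NC value was 5.34 times the highest si-STRIP2 value.

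**Figure D1:**
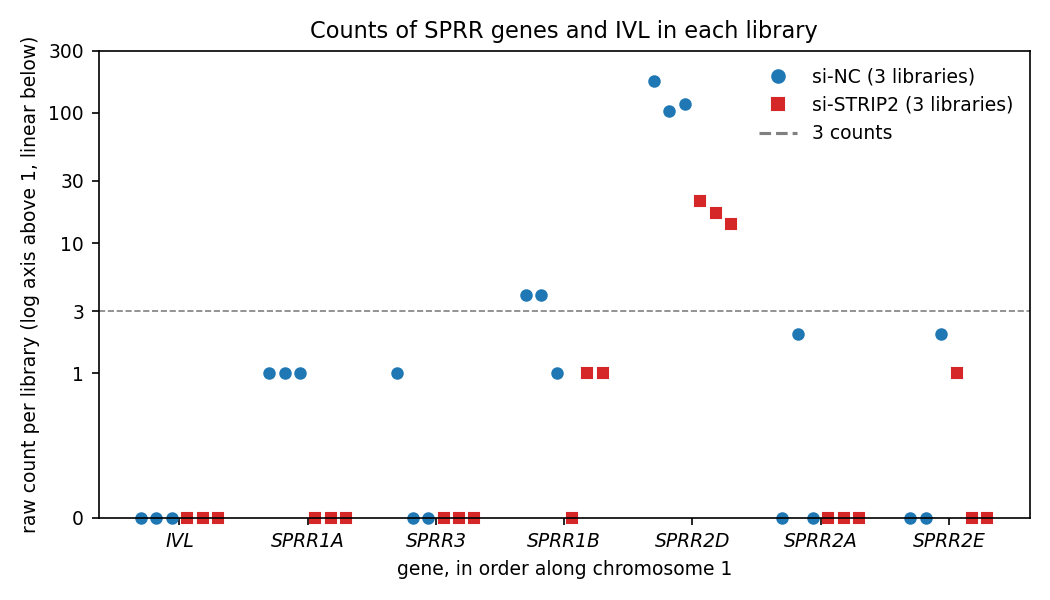
Raw counts of the 7 genes in each library, in their order along chromosome 1, on an axis that is linear below 1 and logarithmic above. Circles are si-NC and squares si-STRIP2, and the dashed line marks 3 counts. SPRR2D sits at 103 to 176 counts in si-NC and at 14 to 21 in si-STRIP2, and among the other genes only SPRR1B rises above the line.

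The mean of SPRR2D was 6.63 ± 1.02 FPKM in si-NC and 0.917 ± 0.145 FPKM in si-STRIP2 (SD, n = 3), or 13.8% of the control level. In the edgeR fit this was a log2 fold change of -2.85 (standard error, SE, 0.20), or 7.21-fold lower. Among the 15687 tested genes, 12 had a lower log2 fold change, and the median of all tested genes was 0.014. In that comparison 27.0% of tested genes were called lower at an edgeR adjusted p under 0.05, and for 28.7% all si-STRIP2 libraries lay below all si-NC libraries. These shares are given for scale, since the gene was selected on this difference. In si-NC the mean FPKM of SPRR2D was above that of 63.9% of tested genes, whose median was 3.65 FPKM, and in si-STRIP2 it was above that of 23.3%.

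On the CPM scale, which divides the count by the TMM-adjusted library size, SPRR2D was at 8.19, 5.90 and 6.90 in si-NC and at 1.11, 0.974 and 0.820 in si-STRIP2. As a measure of the precision at this depth, the exact Poisson interval (95%) of si-NC replicate 2 ran from 4.82 to 7.16 CPM and that of si-STRIP2 replicate 3 from 0.448 to 1.38 CPM. The coefficient of variation between libraries was 16.4% in si-NC, where counting alone gives 8.92%, and 15.0% in si-STRIP2, where counting alone gives 24.3%. The summed counts were 397 in si-NC and 52 in si-STRIP2. Intervals here cover counting error only, as reads without molecular identifiers are not independent molecules. In bulk RNA, fewer cells with the transcript and less transcript per cell cannot be told apart.

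**Figure D2:**
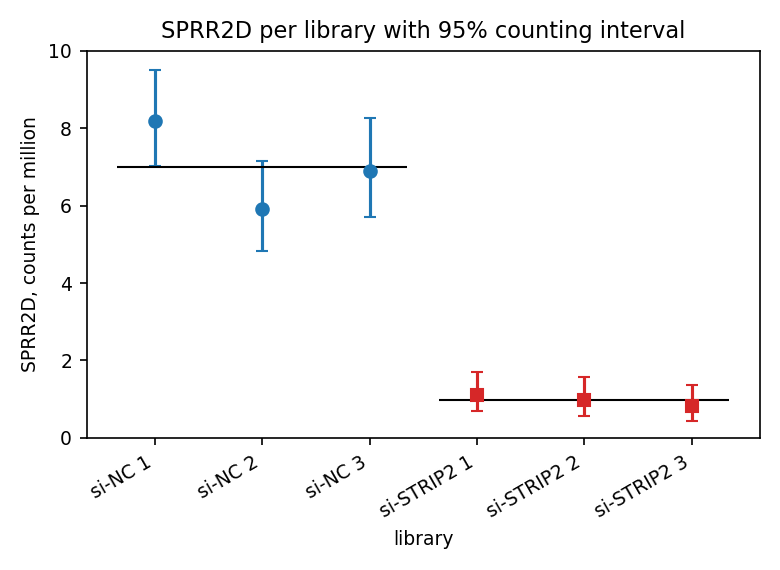
SPRR2D in CPM in each library, with circles for si-NC, squares for si-STRIP2, bars for the exact Poisson interval (95%) of the count, and lines for the group means. The si-NC libraries lie at 5.90 to 8.19 CPM and the si-STRIP2 libraries at 0.820 to 1.11 CPM.

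The exonic size that the authors used for SPRR2D, 1052 bases, is 1.31 times the length of its longest GENCODE 29 transcript, 800 bases. Its FPKM is understated by that factor if that transcript is the one expressed, and the ratio between groups does not depend on it. No other gene with counts overlaps SPRR2D in the deposited coordinates.

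The other 6 genes had 20 counts in all, 17 in si-NC and 3 in si-STRIP2. SPRR1B, one of the pair of type 1 SPRR genes, had 4, 4 and 1 counts in si-NC and 0, 1 and 1 in si-STRIP2. These were 9 counts against 2, and the groups overlapped at 1 count.

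SPRR1A had 1 count in each si-NC library and 0 in each si-STRIP2 library. SPRR2A had 2 counts in si-NC replicate 2 and 0 elsewhere. SPRR2E had 2 counts in si-NC replicate 3 and 1 in si-STRIP2 replicate 1. SPRR3, a gene of oral and esophageal epithelium, had 1 count in si-NC replicate 1. These 4 genes never exceeded 3 counts in a library, which is the floor used here, so no fold change is given for them.

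IVL, the gene of involucrin, had 0 counts in all 6 libraries. With 0 of 109701140 counts, a level of up to 0.0273 CPM (3 counts) is allowed, which is 0.0127 FPKM for a gene of its size. The remaining SPRR genes in the table, SPRR2B, SPRR2C, SPRR2F, SPRR2G, SPRR4 and SPRR5, also had 0 counts in every library. Per length, the order of pooled levels in si-NC was SPRR2D (6.71 FPKM), SPRR1B (0.259), SPRR1A (0.0806), SPRR2A (0.0526), SPRR2E (0.0484), SPRR3 (0.0123) and IVL (0). Levels from SPRR1A downward rest on at most 3 counts and cannot be ordered.

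The sum over all 7 genes followed SPRR2D. It was 182, 110 and 122 counts in si-NC and 22, 18 and 15 counts in si-STRIP2, a log2 ratio of -2.83 in CPM.

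Markers of keratinocytes, the cells in which cornified envelopes form, were examined beside this. Of 11 such markers, 1 (KRT15) had a mean of at least 1 FPKM. KRT5, KRT14, KRT6A, KRT6B, TP63 and DSG3 stayed at or below 0.10 FPKM in every library, and LGALS7 was at 0. The summed level of the 11 markers was 2.67 to 3.16 FPKM in si-NC and 2.02 to 2.23 FPKM in si-STRIP2, without overlap. Among all tested genes, 28.7% were lower in si-STRIP2 without overlap and 27.0% were called lower. The markers did not move alike, as the values below show. Of the 3 markers tested, COL17A1 went from 0.907 ± 0.0751 to 0.507 ± 0.0681 FPKM (SD, n = 3) and was lower in the edgeR test. KRT16 was called lower at an edgeR adjusted p of 0.049, though its groups overlapped. KRT15 had 182, 146 and 120 counts in si-NC and 164, 148 and 143 in si-STRIP2 and was not called (log2 fold change 0.09, edgeR adjusted p = 0.503). Their part in the fall of SPRR2D was not tested.

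The chromosomal neighbourhood of SPRR2D was nearly silent. From the start of IVL to the end of SPRR2E, 198 kb of chromosome 1 (152908546 to 153106184), the table has 13 genes. Counts were found for 6 of them, all in the set, and only SPRR2D could be tested. The nearest tested gene on the IVL side was TCHH, which encodes trichohyalin, a structural protein of hair follicles, 793 kb away. TCHH had 32, 25 and 30 counts in si-NC and 9, 8 and 9 in si-STRIP2 (log2 fold change -1.66, SE 0.31, edgeR adjusted p = 2.94e-05). On the SPRR2E side it was S100A6, a calcium-binding protein gene 428 kb away, at 194.8, 195.3 and 192.6 FPKM in si-NC and at 205.1, 190.4 and 190.8 FPKM in si-STRIP2. The groups overlapped, and S100A6 did not pass the test (log2 fold change 0.0059, SE 0.040, edgeR adjusted p = 0.914).

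Of 49 other genes of the epidermal differentiation complex, 30 had no count in any library and 12 were tested. The 18 LCE genes, which encode late envelope proteins, included 2 with a count and none that could be tested. The 16 S100 genes of the complex, by contrast, included 11 that were tested. Of the 12 tested genes, 3 fell (25.0%, against 27.0% of all tested genes) and 4 rose (33.3%, against 27.8%), and their median log2 fold change was 0.022, near that of all tested genes.

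**Figure D3:**
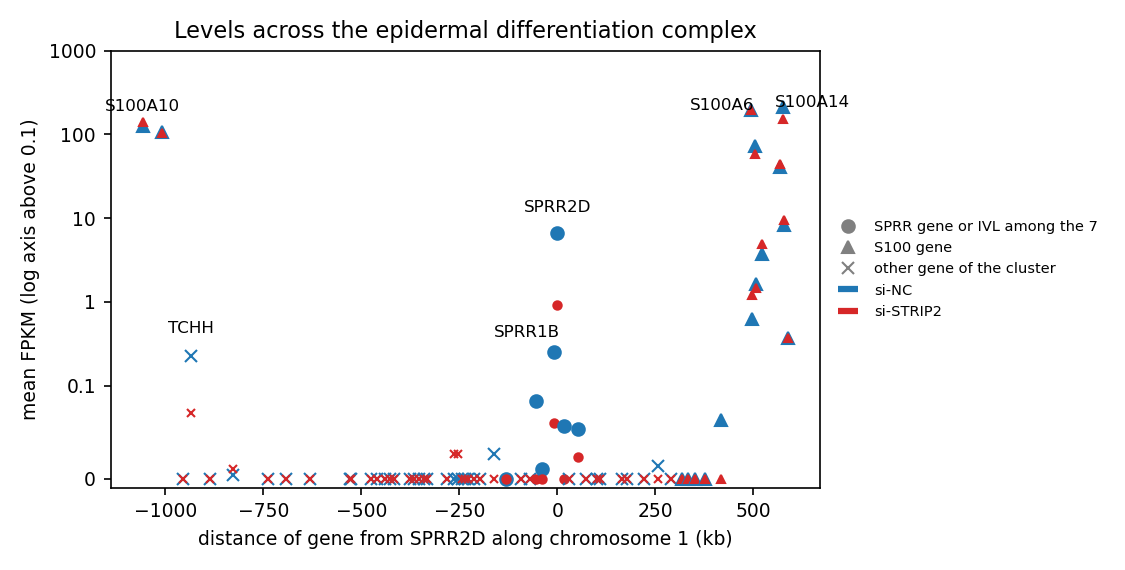
Mean FPKM of each gene of the complex in si-NC (blue) and si-STRIP2 (red) against its distance from SPRR2D along chromosome 1, on an axis that is linear below 0.1 and logarithmic above. Circles are the 7 genes, triangles S100 genes and crosses other genes of the complex. SPRR2D is the only gene above 1 FPKM in si-NC between the S100 genes at either end.

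The genes that fell were TCHH, S100A14 and S100A4. S100A14, an S100 gene of epithelial cells, went from 213 ± 8.49 to 154 ± 2.67 FPKM (SD, n = 3, log2 fold change -0.48, edgeR adjusted p = 4.54e-12). S100A4, associated with cell motility, had a log2 fold change of -0.33 (edgeR adjusted p = 8.09e-07). S100A5 (0.96), S100A2 (0.36), S100A13 (0.21) and S100A10 (0.16) rose. The calls of S100A5, S100A2 and S100A13 were lost under DESeq2 (DESeq2 adjusted p = 0.0529, 0.0636 and 0.0765), which left 1 gene higher, and 2 were higher without replicate 3 of si-NC or of si-STRIP2. SPRR2D, which was selected on this difference, had a log2 fold change of -2.85. The other tested genes of the cluster lay between -1.66 and 0.96, and the nearest was 428 kb from the run of the 7 genes.

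Promoter sequences were looked up for the 7 genes in RefSeq (GRCh38.p14, 250 bases before to 50 after the annotated start). Entries were found for 5, IVL, SPRR1A, SPRR1B, SPRR2A and SPRR3, and none for SPRR2D and SPRR2E. AP-1, the dimer of FOS and JUN family proteins, is known to activate involucrin and SPRR genes in keratinocytes, so the 250 bases before the start are shown for a type 1 and a type 2 gene, with its word, TGANTCA, in capitals.
SPRR1B (chr1:153030953-153031202, plus strand): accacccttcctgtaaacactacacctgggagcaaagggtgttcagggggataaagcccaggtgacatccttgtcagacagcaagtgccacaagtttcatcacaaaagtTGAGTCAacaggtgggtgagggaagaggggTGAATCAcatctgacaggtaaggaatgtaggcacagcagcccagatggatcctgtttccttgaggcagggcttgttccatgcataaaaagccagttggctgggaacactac
SPRR2A (chr1:153057513-153057762, minus strand): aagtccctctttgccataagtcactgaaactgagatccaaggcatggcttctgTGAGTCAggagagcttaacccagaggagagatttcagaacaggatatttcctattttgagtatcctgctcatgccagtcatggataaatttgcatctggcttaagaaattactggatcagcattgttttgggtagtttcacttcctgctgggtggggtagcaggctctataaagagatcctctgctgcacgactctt

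The word TGANTCA, searched on both strands, of which it reads the same, occurred in all 5 promoters and in 7.71% of 35116 RefSeq promoters of the same length. Its first base lay at position -170 in SPRR3, -123 in IVL, -108 in SPRR1A, -197 in SPRR2A, and -141 and -111 in SPRR1B, counted from the annotated start. The word GGAAGT, of the kind bound by ETS factors, was in 3 of the 5 (22.8% of all promoters). The octamer ATTTGCAT was in 1, SPRR2A (1.77% of all promoters), and TATAAA was in 4 (11.5%). Among the 5 promoters of remaining SPRR genes with an entry, 2 held TGANTCA. A match describes the sequence only. The genes whose promoters could be read had at most 4 counts in any library.

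Transcription factors of the kinds known at SPRR and involucrin promoters were then examined, namely AP-1, ETS, Krüppel-like and epithelial differentiation factors. Whether each one acts at these promoters was not examined. Of 29 listed factors, 26 could be tested. In si-STRIP2, 20 fell (76.9%, against 27.0% of all tested genes) and 3 rose (11.5%, against 27.8%), with a median log2 fold change of -0.55 against 0.014 for all tested genes. Falls of at least 2-fold were found for 6 of the 26, against 2.91% of all tested genes. The list was drawn up with the fall of JUN in these libraries known, so its direction is not independent evidence.

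Within the AP-1 family the members moved unequally. FOSB had 323, 271 and 342 counts in si-NC and 39, 33 and 30 in si-STRIP2 (log2 fold change -3.13, SE 0.14, edgeR adjusted p = 9.13e-19). JUN had 1093, 941 and 960 counts against 199, 147 and 127 (log2 fold change -2.60, SE 0.082, edgeR adjusted p = 3.11e-23). FOS fell by 2.01 on the log2 scale (SE 0.084, edgeR adjusted p = 5.41e-20), from 22.1 ± 3.49 to 5.47 ± 0.690 FPKM (SD, n = 3). FOSL1, which encodes the FOS family member FRA-1, went the other way, from 20.8 ± 1.00 to 27.7 ± 0.366 FPKM (SD, n = 3, log2 fold change 0.41, edgeR adjusted p = 6.01e-08). The value of FOSB is uncertain, since ERCC1, which overlaps it, held 367% of its count and the sources used here do not give the strand setting.

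The Krüppel-like factors KLF5 (28.5 ± 0.847 to 14.2 ± 0.833 FPKM, SD, n = 3) and KLF4 (log2 fold change -0.98), the latter needed for the barrier function of skin, and the epithelial ETS factor EHF (-0.86) also fell, with edgeR adjusted p-values of 1.55e-18, 2.10e-18 and 2.50e-17. ELK3 (0.17) and SP1 (0.12) were the other 2 that rose, though SP1 missed the threshold once si-STRIP2 replicate 2 was left out (edgeR adjusted p = 0.0531). TP63, the master regulator of stratified epithelium, had at most 5 counts in a library and was not tested.

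Genes of a list of envelope precursors, cross-linking enzymes and terminal differentiation genes, encoded outside the complex, fell more often than they rose. Of 37 listed genes, 18 were tested, 10 fell (55.6%, against 27.0% of all tested genes) and 3 rose (16.7%, against 27.8%), with a median log2 fold change of -0.51 against 0.014. Of the 18, 3 fell at least 2-fold, against 2.91% of all tested genes. This list too was drawn up with earlier results of these libraries known, so its direction is not independent evidence. SLPI, a secreted protease inhibitor, had 92, 70 and 68 counts in si-NC and 5, 7 and 5 in si-STRIP2 (log2 fold change -3.66, SE 0.27, edgeR adjusted p = 1.94e-13), and its fall in these libraries was known when the list was made. KRT80, a keratin of differentiating epithelium, went from 12.8 ± 0.386 to 3.11 ± 0.258 FPKM (SD, n = 3, log2 fold change -2.04, SE 0.067, edgeR adjusted p = 5.37e-23). KLK7, a protease of surface shedding (-0.84), the desmosomal cadherins DSC3 (-0.76) and DSC2 (-0.52), and CSTA, a cysteine protease inhibitor built into the envelope (-0.69), fell with edgeR adjusted p-values of at most 3.52e-09.

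The 3 listed genes that rose did not follow SPRR2D. They encode scaffold proteins and a cross-linking enzyme. Other tested genes of these kinds were not called. EVPL, which encodes the scaffold protein envoplakin, rose by 0.43 on the log2 scale (SE 0.069, edgeR adjusted p = 2.55e-06), and DSP, the gene of desmoplakin, by 0.22 (edgeR adjusted p = 0.000389). TGM1, the gene of the main transglutaminase of the envelope, had 27, 23 and 25 counts in si-NC and 49, 34 and 35 in si-STRIP2 (log2 fold change 0.71, SE 0.23, edgeR adjusted p = 0.0101). The calls of DSP and TGM1 were lost under DESeq2 (DESeq2 adjusted p = 0.0581) and without si-STRIP2 replicate 1 (edgeR adjusted p = 0.0698), respectively.

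**Figure D4:**
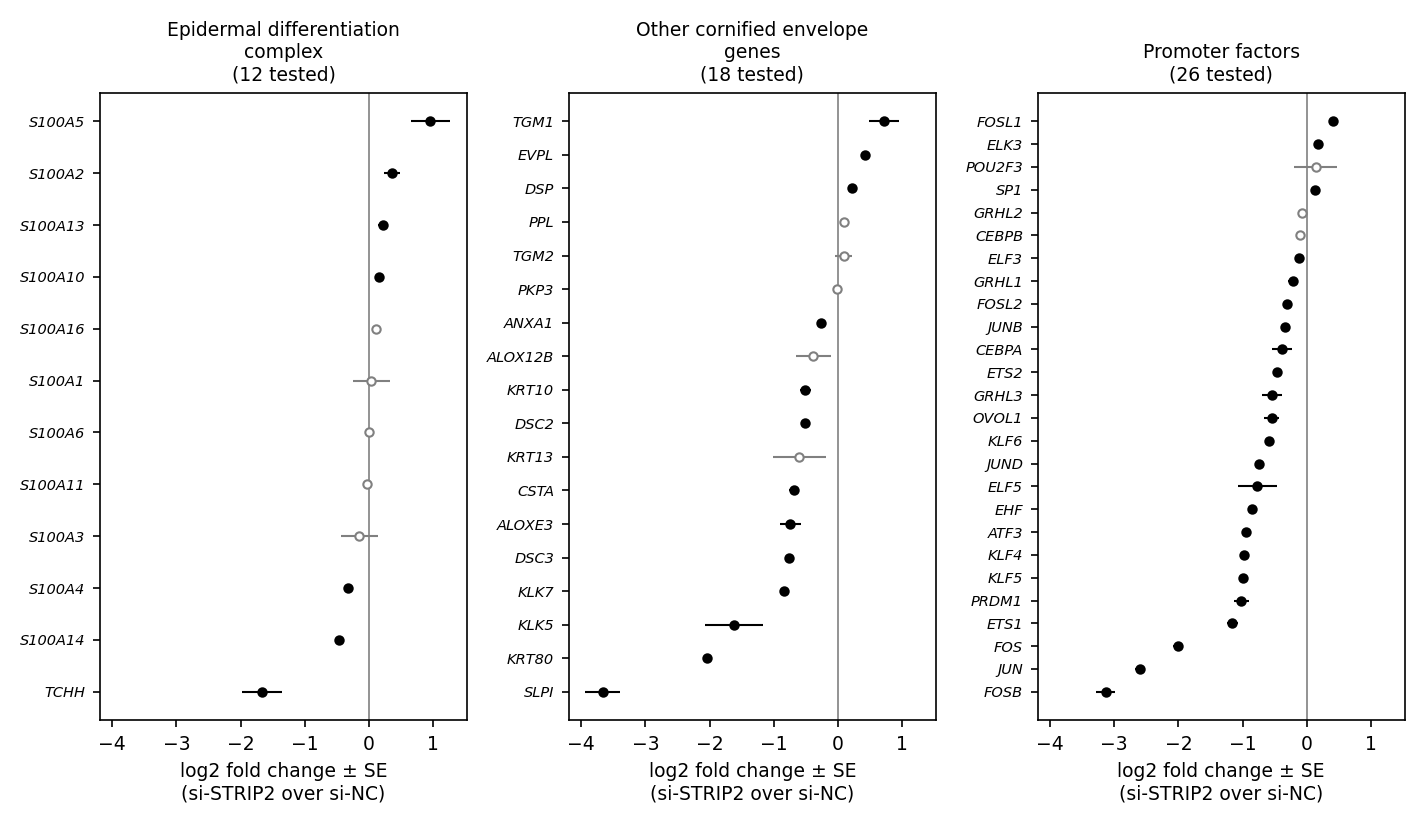
Log2 fold changes of si-STRIP2 over si-NC with standard errors for the tested genes of the 3 lists, where filled points passed the edgeR test at an adjusted p under 0.05. The promoter factors lie mostly to the left of 0, with FOSB at -3.13 and JUN at -2.60, while the genes of the complex lie on both sides.

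The genes most like SPRR2D across the 6 libraries were ranked by the root mean square difference of log2 CPM after each gene was centred on its own mean. JUN was nearest (0.177), followed by SPX, the gene of the peptide spexin (0.182), IL20RB, a subunit of receptors for interleukins of the IL-20 group (0.250), LINC01512, a long noncoding RNA (0.263), and FOSB (0.269). SPX had 290, 258 and 241 counts in si-NC and 49, 40 and 31 in si-STRIP2. LINC01512 had 88, 49 and 57 against 8, 5 and 3. The measure is dominated by the difference between groups, on which SPRR2D was selected, and genes that overlap IL20RB and LINC01512 held 136% and 78.1% of their counts.

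**Figure D5:**
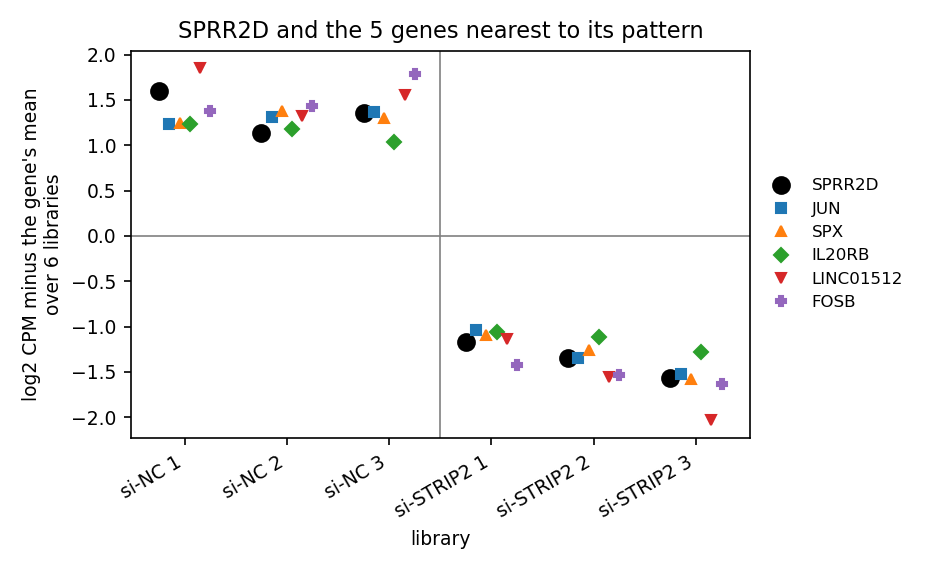
Log2 CPM of SPRR2D and of the 5 genes nearest to it in each library, each centred on its mean over the 6 libraries. All 6 genes lie above 1 in the si-NC libraries and below -1 in the si-STRIP2 libraries.

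In the gene ontology terms of the deposited table, cornified envelope was given to 38 genes, 2 of them among the 7, and 14 of the 38 had a mean of at least 1 FPKM. SPRR2D had no term. Of the 18 that could be tested, 7 fell and 4 rose, where 27.0% and 27.8% of all tested genes did. Their median log2 fold change was -0.08, nearer 0 than the -0.51 of the listed envelope and differentiation genes outside the complex. Keratinization was given to 34 genes, 4 of them among the 7. Of these 34, 11 were tested, 4 fell and 3 rose, with a median of 0.06. Peptide cross-linking had 9 tested genes, of which 4 fell and 3 rose (median 0.02), and cornification had 4, of which 1 fell and 1 rose (median 0.22).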

How the data were processed

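The authors deposited 1 table of 61806 Ensembl genes with, per the file headers, raw counts and FPKM values in each of the 6 libraries and an exonic gene size in bases. The submitters' processing notes name HISAT2 2.2.1, HTSeq 0.6.1 and the build GRCh38.p13. The annotation release and the strand setting of counting are not given in the sources used here. The deposited FPKM values were recomputed from counts, size and column total to within 0.005.

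Counts were analysed in R 4.3.3 with edgeR 4.0.16. Genes passing filterByExpr (minimum count 10), 15687 with 99.8% of counts, were scaled by TMM and fitted with group as the only term. P-values of the quasi-likelihood F test (2-sided) were adjusted over these genes by Benjamini-Hochberg, and a gene was called at an adjusted p under 0.05. Standard errors are the log2 fold change divided by the root of F. The fit was also run on simulated counts with the same spread in both groups. The groups here differed in spread, so that run does not give the error rate of these calls. Alternatives used DESeq2 1.42.0 and limma 3.58.1. Libraries within groups differed beyond sampling noise, more so in si-NC. Chi-square per degree of freedom was 4.48 to 15.1 for pairs of si-NC libraries and 2.05 to 2.17 for pairs of si-STRIP2 libraries.

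The 7 genes and all lists were chosen with earlier results of these data known. The rule for names took the 7 genes, STRIP2, up to 6 called genes per list and direction by adjusted p, the 5 nearest patterns and the nearest tested neighbours. Shared stretches were exact matches, on either strand, to GENCODE 29 transcripts. Promoter words were chosen after the data were seen.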

Additional observations from a re-analysis of the deposited data

How the results depend on the processing

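Results were recomputed under 14 alternatives. SPRR2D stayed lower under each, with log2 fold changes from -2.96 to -1.99. The value nearest 0, -1.99, came from limma on log2(FPKM + 1), whose pseudocount exceeds the mean FPKM of SPRR2D in si-STRIP2. Leaving out each library in turn gave -2.96 to -2.71 for SPRR2D and -2.94 to -2.71 for the sum over the 7 genes. The number of genes of the complex called higher, 4, was 1 under DESeq2 and ranged from 2 to 5 with a library left out, its lowest value being reached when replicate 3 of either group was absent. The number called lower in the other lists ranged from 9 to 11 for envelope and differentiation genes and from 17 to 20 for promoter factors over the alternatives.

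Of 418 alternative values of 30 named genes, 403 kept direction and call, 11 lost the call and 4 changed sign. The 4 were all of S100A6, which was called under no setting (-0.02 to 0.02). The calls were lost for S100A5 (adjusted p from 0.00119 to 0.0644 over its alternatives), S100A2 (0.0101 to 0.106), S100A13 (0.0218 to 0.122), DSP (6.07e-08 to 0.0581), TGM1 (0.00991 to 0.0698) and SP1 (0.00523 to 0.0531), by edgeR, DESeq2 or limma. The cause was not tested.

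The fit with the replicate block gave -2.84 for SPRR2D and 4097 lower and 4196 higher calls over all genes, against 4240 and 4359. Libraries with the same number did not deviate together (correlations of deviations from -0.086 to -0.013). With 3 libraries per group this cannot exclude that equal numbers share a culture or preparation, so pairing remains unknown. The remaining SPRR genes, at 0 counts, could not be fitted under any setting. Low counts limit what can be said of 6 of the 7 genes, which had at most 4 in a library.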
